A study of Caenorhabditis elegans with 2 samples.

Results

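Single-gene promoter peaks are the sites of LIN-1 signal that lie in the promoter window of exactly 1 protein-coding gene. The gene at each site can thus be named without a choice between promoters, though a summit may also lie inside another gene. A peak was taken when its summit, the base at which its signal is highest per the deposited list, lay between 1000 bp upstream and 200 bp downstream of the start of 1 protein-coding gene of the Ensembl annotation, and more than 200 bp from any tRNA, snoRNA, snRNA or rRNA gene. The rule found 635 peaks at 592 genes. These were 28.3% (exact 95% binomial interval 26.5 to 30.2) of the 2243 peaks on the nuclear chromosomes, out of 2267 in all, while 19% of the nuclear genome is open to the rule. Intervals here cover counting error over peaks or genes, which are not replicates of the experiment. Of 909 summits in promoter windows, 192 were shared by several genes and 82 lay near a small RNA gene of those 4 kinds.

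The study measured where the LIN-1 protein sits on chromatin in whole Caenorhabditis elegans L4 larvae by chromatin immunoprecipitation followed by sequencing (ChIP-seq). All animals were of strain RW12212, which carries the allele st12212[lin-1::TY1::EGFP::3xFLAG] IV, a tag placed into the endogenous lin-1 gene with CRISPR, so the binding is that of a tagged protein under its own promoter in all cells of the animal that make it. Larvae were synchronised by bleaching and starvation at the L1 stage and taken at 48 hours, in 1 group of 2 biological replicates; no untagged or other-stage group is in the series, and a control experiment that the labels point to was not used here. Per the description an antibody against GFP was used, whereas the antibody field reads lin-1. Replicate 1 had 1079 thresholded peaks of its own and replicate 2 had 1348, and no read totals were used here. Since whole animals were used, strong binding in few cells and weak binding in many cells cannot be told apart.

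LIN-1 belongs to the ETS family, whose DNA-binding domain recognises a short purine-rich core, GGAA or a variant of it. In the worm it acts at the end of the EGF, Ras and ERK pathway, where it holds back vulval fate until the kinase phosphorylates it, and it also takes part in making the excretory duct cell. GATA factors read a core of GATA, and in the worm intestine ELT-2 is the main one.

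The windows below show what lay under the summits. Each is a summit with 50 bp to each side, taken from the RefSeq WBcel235 genome (the same assembly as ce11), read 5′ to 3′ on the strand of the gene. Capitals mark any of 3 short words, on either strand: the ETS core CCGGAA, a word with a GATA core, TGATAA (called the GATA word), and GAGACGC (called the GA-rich word). The first 5 are among the strongest windows outside exons that both replicates list; xbp-1 holds the ETS core, F16G10.6 holds the GATA word 2 times, and the other 3 hold none of the words.
xbp-1 (chrIII:4193698-4193798, plus strand): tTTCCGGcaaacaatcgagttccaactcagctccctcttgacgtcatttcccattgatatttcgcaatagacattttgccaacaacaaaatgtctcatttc
rpl-3 (chrIII:3867510-3867610, plus strand): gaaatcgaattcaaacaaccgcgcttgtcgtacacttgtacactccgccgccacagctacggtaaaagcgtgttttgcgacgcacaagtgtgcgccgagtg
rpl-35 (chrIII:7854641-7854741, plus strand): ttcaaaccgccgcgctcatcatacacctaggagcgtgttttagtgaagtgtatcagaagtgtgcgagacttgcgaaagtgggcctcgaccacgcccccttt
cdc-48.1 (chrII:10563534-10563634, minus strand): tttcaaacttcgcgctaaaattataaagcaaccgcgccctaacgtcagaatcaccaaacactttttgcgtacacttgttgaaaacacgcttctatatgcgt
F16G10.6 (chrII:2378693-2378793, minus strand): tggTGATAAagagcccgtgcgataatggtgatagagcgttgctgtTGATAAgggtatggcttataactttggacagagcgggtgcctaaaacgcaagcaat
The next 4 were chosen after their values were seen, as strong windows with the GATA word, 2 of which hold it 3 times.
fbxc-29 (chrII:915383-915483, plus strand): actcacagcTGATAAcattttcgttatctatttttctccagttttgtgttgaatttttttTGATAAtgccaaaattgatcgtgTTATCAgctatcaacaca
srz-62 (chrIV:3899988-3900088, plus strand): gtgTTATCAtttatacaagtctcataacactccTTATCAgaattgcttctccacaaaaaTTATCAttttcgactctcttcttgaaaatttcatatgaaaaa
B0507.3 (chrV:8768596-8768696, plus strand): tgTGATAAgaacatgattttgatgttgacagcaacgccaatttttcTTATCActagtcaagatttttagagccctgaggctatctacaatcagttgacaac
C34C12.9 (chrIII:3475636-3475736, minus strand): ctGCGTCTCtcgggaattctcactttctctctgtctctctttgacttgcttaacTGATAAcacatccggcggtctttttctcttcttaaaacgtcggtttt
The last 4 were chosen in the same way for the GA-rich word and, in oac-14, for the ETS core.
cebp-1 (chrX:1454550-1454650, minus strand): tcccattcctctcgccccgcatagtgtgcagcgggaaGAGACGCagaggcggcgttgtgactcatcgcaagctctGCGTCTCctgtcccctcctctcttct
nhr-58 (chrV:532147-532247, plus strand): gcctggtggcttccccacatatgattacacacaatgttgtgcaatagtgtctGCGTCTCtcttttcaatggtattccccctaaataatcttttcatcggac
C34C12.8 (chrIII:3460216-3460316, plus strand): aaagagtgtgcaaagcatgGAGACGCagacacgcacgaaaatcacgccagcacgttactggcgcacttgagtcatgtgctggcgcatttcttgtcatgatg
oac-14 (chrX:10142158-10142258, minus strand): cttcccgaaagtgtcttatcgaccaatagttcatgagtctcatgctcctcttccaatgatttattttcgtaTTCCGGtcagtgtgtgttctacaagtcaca
The rpl-3 and rpl-35 windows both hold the letters gtgtgcg, counted over all members further on. The C34C12.9 window holds a GA-rich word and a GATA word.

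The strongest single-gene promoter peak, and the strongest of all nuclear peaks, lay at rpl-3, the gene of a large-subunit ribosomal protein. Its signal, a value of the authors whose scale is not stated, was 516 in the conservative list, made by comparing peak ranks between the replicates, with 224 in replicate 1 and 299 in replicate 2. Next came rpa-2, a subunit of the single-stranded DNA binding protein RPA, at 316 (137 and 167 in replicates 1 and 2). xbp-1, the transcription factor of the endoplasmic reticulum stress response, followed at 303 (133 and 169.9). In each replicate rpl-3 stood clear of every other member. rpl-35, another protein of the large ribosomal subunit, had 297 (138 and 158). cdc-48.1, the ATPase that pulls ubiquitin-tagged proteins out of complexes and membranes, had 277 (125 and 151). The conservative signal is close to the sum of both replicates: over the 587 members with a signal of their own in both, its median ratio to that sum was 1.000.

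The 24 strongest members found in both replicates' own thresholded lists had conservative signals of 167 or more. Besides the 5 above they were F16G10.6, mog-4, cbp-1, eel-1, F02E9.5, hsp-3, fbxc-29, puf-9, C52E2.2, wwp-1, nspc-17, srz-62, eelo-2, mtcu-2, B0507.3, cox-5A, ZK550.2, epn-1 and sqd-1. All 24 summits lay upstream of the gene start, but some also lay inside another gene. The C52E2.2 summit lay in an intron of C52E2.3 and the mtcu-2 summit in an intron of let-268. Those of puf-9, wwp-1 and epn-1 lay in exons of non-coding RNA genes. Several encode proteins that most cells use. mog-4, an RNA helicase of splicing, had 111 and 130.4 in replicates 1 and 2, and cbp-1, the worm CBP/p300 acetyltransferase, had 117 and 105. eel-1, a HECT ubiquitin ligase, had 116 and 113, close to equal, and wwp-1, another ligase of that kind, had 87.0 and 103. hsp-3, a chaperone of the endoplasmic reticulum, had 103 and 115. A few belong to large gene families instead: fbxc-29, an F-box gene, had 92.0 and 125, and srz-62, a chemoreceptor gene, had 94.6 and 87.4. Replicate 2 was the higher for 19 of the 24, with a ratio of replicate 2 to replicate 1 between 0.777 at sqd-1 and 2.05 at epn-1, an epsin of endocytosis (56.9 and 117), and a median of 1.17. serp-1.1 had a conservative signal of 277 (99.7 and 169.9) but was thresholded in replicate 2 only, so it is not among the 24.

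**Figure D1:**
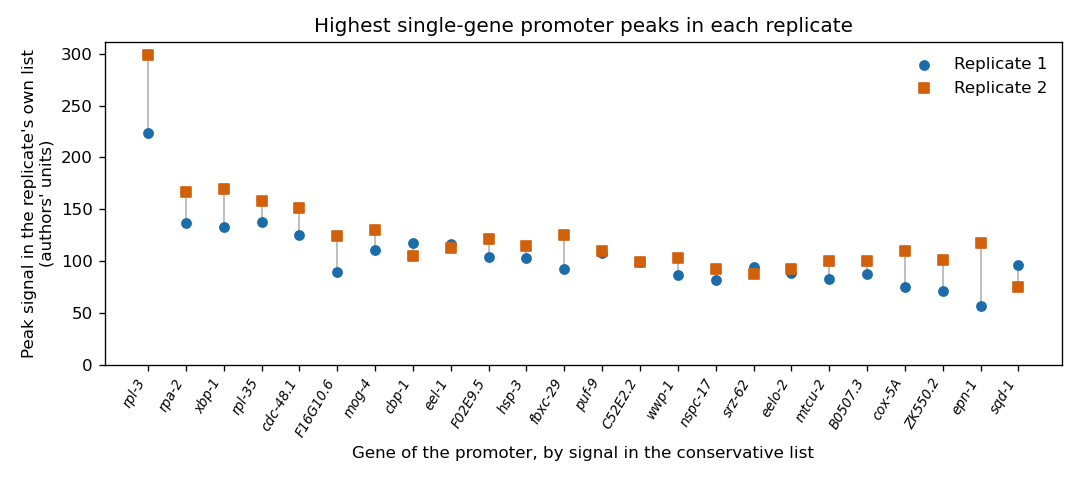
Signal of the 24 strongest single-gene promoter peaks found in both own thresholded lists, in replicate 1 (circles) and replicate 2 (squares). Each value is from the replicate's own ranked list in the authors' units, with a line joining the 2 values of a gene. The rpl-3 peak, at 224 and 299, is the highest in both replicates, and 19 of the 24 squares lie above their circle.

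As a set, the members were ordinary in strength. Their median conservative signal was 73.1 (quartiles 60.9 and 92.3, range 3.23 to 516), against 73.8 (60.6 and 96.1) for all nuclear peaks and 79.7 for peaks in promoters shared by several genes. Of the 635, 168 overlapped a thresholded peak of both replicates by 1 bp or more, which is 26.5% (23.1 to 30.1), against 30.2% of all nuclear peaks, 38.5% (31.6 to 45.8) of shared promoter peaks and 40.8% (35.7 to 46.1) of peaks near small RNA genes. A further 71 were thresholded in replicate 1 only, 159 in replicate 2 only, and 237 in neither list. Among the members, 38 (5.98%, against 5.75% of nuclear peaks) repeated both replicate signals of a stronger neighbouring peak, with a median conservative signal of 9.54 and a highest value of 28.7. The low end of the range comes from these: the 597 others had a median of 74.6.

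In the 2 ranked lists, 623 members had a value in each. Replicate 2 was higher for 423 of them, with a median log2 difference of 0.23 (SD 0.46 across peaks) and a median ratio of 1.17 (quartiles 0.943 and 1.45). For 591 (94.9%) the replicates lay within 2-fold of each other. Across these 623 peaks of the same pair of libraries, Spearman's rho was 0.440 and Pearson's r of log2 signal was 0.613. The conservative list keeps peaks whose ranks agree between these same 2 replicates, so their closeness was in part set by that choice. Of the 623, 587 had a signal of their own, and the rest were repeated peaks. Members with the widest gaps were picked out after their values were seen. Towards replicate 1 the widest was at xrn-2, a nuclear exoribonuclease, with 69.0 and 26.9 (ratio 0.391). Towards replicate 2 it was at scl-2, with 22.8 and 71.2 (ratio 3.12), then at lbp-3, a lipid-binding protein, and del-5, with ratios of 2.53 and 2.52. None of these 4 is among the 24 strongest.

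**Figure D2:**
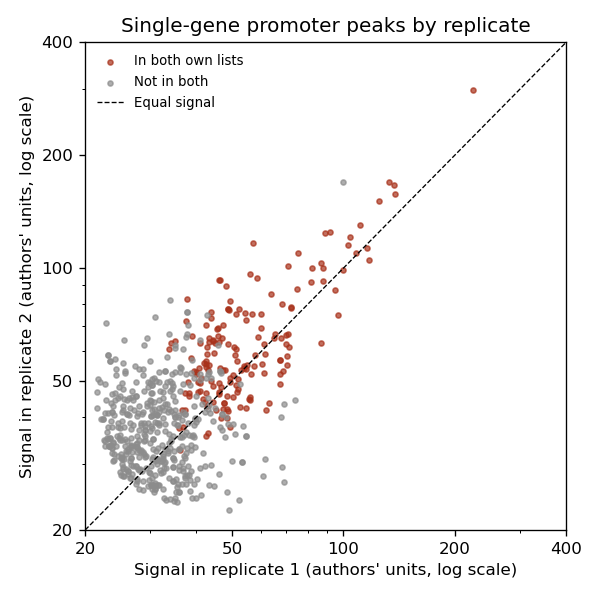
Signal of the 623 members with a value in both ranked lists, replicate 1 on the horizontal and replicate 2 on the vertical axis (authors' units, log scales); red points are the members found in both own thresholded lists, and the dashed line marks equal signal. Most points lie above the line, 423 of 623, and the red points take the upper right.

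Within the window the summits crowded towards the gene. Of the 635, 589 lay upstream of the start, 2 at it and 44 downstream, with a median of 266 bp upstream (quartiles 120.5 and 506). The 400 bp before the start held 389 (61.3%), and those bases are 33.3% of a whole window. The rule leaves out bases in a second gene's window or near small RNA genes. Open positions were not counted by distance, so the part of the rule in this crowding was not measured. The fullest stretch was 100 to 200 bp upstream with 119 summits, followed by 200 to 300 bp with 98 and 0 to 100 bp with 89. Median signal was 73.9, 75.6, 76.9, 74.2 and 86.3 in the 5 stretches of 100 bp nearest upstream of the start, and between 66.3 and 71.5 in the 5 farther ones. Downstream of the start it was 60.6 and then 70.0. The annotation at the summit was intergenic for 490 (77.2%, 73.7 to 80.4), a non-coding exon for 42, an intron for 36, a 5′ UTR for 27, a coding exon for 21 and a 3′ UTR for 19. The UTR and coding exon summits include those of neighbouring genes. Genes with a member had a median of 1586 bp to the next gene upstream, against 938 bp for all 19973 protein-coding genes; the rule leaves out starts that share a window with another gene, and that part of the difference was not measured.

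On X lay 134 members, 21.1% (18.0 to 24.5), against 15.4% of the positions open to the rule and 13.7% of protein-coding genes. On V lay 127, 20% (17.0 to 23.3), against 25% of open positions. X was thus above and V below the share of open positions, each outside the interval. Among all nuclear peaks the share on X was 21.5% and on V 16.8%. On the other chromosomes the shares were 17.6% on II, 15% on III, 13.4% on IV and 12.9% on I, against 17.0%, 12.7%, 16.1% and 13.8% of open positions, each inside its interval.

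At 551 genes there was 1 member, at 39 there were 2 and at 2 there were 3. Most second peaks were the repeated ones described above: 10 of these 41 genes had more than 1 peak with a signal of its own. pro-1, a WD-repeat protein of ribosome making, had summits at 141 and 930 bp upstream with signals of 93.2 and 65.5, and a repeated one at 12.2 between them. calu-1, a calcium-binding protein of the secretory pathway, had summits at 230 and 767 bp with 66.9 and 63.8. bet-2, a bromodomain protein, had summits at 315 and 740 bp with 66.9 and 64.9.

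Peaks near the limits of the rule varied in strength on both sides. Just inside 1000 bp lay ttr-41 at 999 bp with a signal of 94.6 and ulp-4 at 999 bp with 64.3. Just outside lay nfki-1 at 1003 bp with 30.2 and dhs-8 at 1004 bp with 121. At the downstream limit pyk-1, pyruvate kinase, was inside at 195 bp with 113. Nearer that limit, and also inside, were tent-5 with 62.8 and C18A11.1 with 63.0. E01G4.3 was outside, 1 bp beyond the limit, with 94.7. By the limit to small RNA genes F08G5.3 was inside at 207 bp from one with 9.63 and mnk-1 at 210 bp with 41.1, and W06H8.6 outside at 200 bp with 134.

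The ETS core CCGGAA lay under few of these summits, whereas the bare GGAA lay in most summit windows and in most flanks. CCGGAA lay within 17 of the 635 windows, 2.68% (1.57 to 4.25), against 3.94% (2.94 to 5.16) of windows centred 500 bp to each side (the flanks) and 3.64% of windows placed 266 bp upstream of all protein-coding genes. The longer CCGGAAGT, which contains it, lay in 1 window (0.157%), against 0 of 1270 flanking windows. The shorter GGAAGT lay in 25 (3.94%), against 2.60% of flanks, and the bare GGAA in 57.0%, against 61.5% of flanks. None of these shares stood above its flank beyond the intervals. In the replicates' own lists CCGGAA lay in 14 of 274 windows in replicate 1, 5.11% (2.82 to 8.42), against 4.20% of flanks, and in 11 of 377 in replicate 2, 2.92% (1.47 to 5.16), against 3.58% of flanks. With the conservative members cut into 4 by signal, from weakest to strongest, 2, 4, 5 and 6 windows held it (1.26%, 2.52%, 3.16% and 3.77%). The 17 windows had a median signal of 81.0, and 8 were in both own lists, 47.1% (23.0 to 72.2), against 160 of the other 618 (25.9%).

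Named windows with the ETS core, after xbp-1, were those of T13C5.6 at 156 (74.9 and 88.2 in replicates 1 and 2), seip-1, a seipin of lipid droplets, at 156 (56.0 and 96.7), srv-1 at 116 (67.3 and 49.0) and cpr-1, a cysteine protease of the gut, at 105 (40.8 and 63.1). Lower down came sar-1, the GTPase of COPII coats, at 73.4 (32.6 and 41.8) and ogt-1, the O-GlcNAc transferase, at 63.0 (33.5 and 32.5). In each of these the word is a match of letters and not a measured contact.

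The GATA word was the commonest of the 3 words, which were chosen with earlier results of these data known, so their shares are descriptions and not tests. It lay in 171 of the 635 windows, 26.9% (23.5 to 30.6), against 10.6% (8.99 to 12.5) of flanking windows and 10.6% of all promoters. The longer CTGATAA, which contains it, lay in 13.4%, against 2.05% of flanks. Written backwards without complementing, AATAGT has the same bases and lay in 5.98%, against 7.32% of flanks. The related AGATAA lay in 8.50%, against 4.88%. The word sat near the summit, with a median of 21.5 bp from it, in 44 windows more than once, and on the gene's strand for 81 and the other for 90. In bins of 50 bp its share was 15.4% just after the summit and 5.20% in the farthest bin upstream.

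Away from the single-gene promoters the share took 2 levels. Peaks in shared promoters held the GATA word in 13 of 192 windows, 6.77% (3.65 to 11.3), and peaks near small RNA genes in 7.95% (5.39 to 11.2). Intergenic peaks outside promoters held it in 27.2% (23.2 to 31.5), exonic ones in 25.5% (19.8 to 31.9) and intronic ones in 33.4% (28.7 to 38.4). The share of the members lies with the second set and above the first. The same split stood in each replicate's own list: 25.5% in replicate 1 and 25.2% in replicate 2 for single-gene promoters, against 9 of 100 and 8 of 126 (6.35%) windows for shared ones. No test of the difference was run, and the intervals of the first and second group do not overlap in any of the 3 lists. Base content differed as well: the GC share of summit windows was 45.1% for members, against 35.6% in their flanks and 47.9% for shared promoter peaks. Members with the GATA word had 39.0% GC and those without it 47.3%; the part of base content in the difference was not tested.

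**Figure D3:**
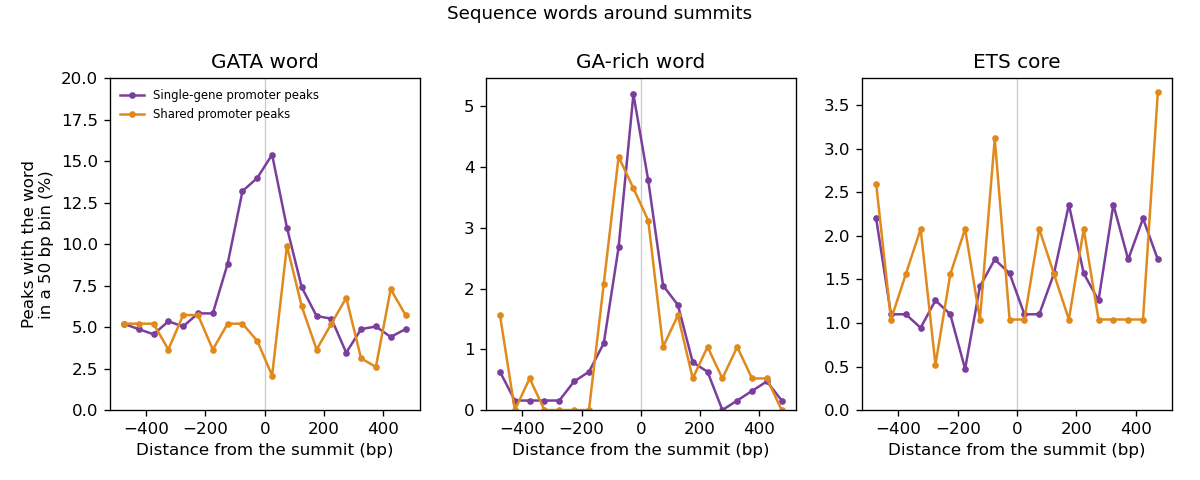
Share of peaks with each word in bins of 50 bp (vertical axis, %) by distance of the bin's centre from the summit (horizontal axis, bp; positive is towards the gene for single-gene peaks and along the reference strand for shared ones). The 635 single-gene promoter peaks are in purple and the 192 shared ones in orange; for single-gene peaks the GATA word has 14.0% and 15.4% in the bins on either side of the summit, where shared ones have 4.17% and 2.08%, the GA-rich word is highest near the summit in both, and the ETS core is not.

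**Figure D4:**
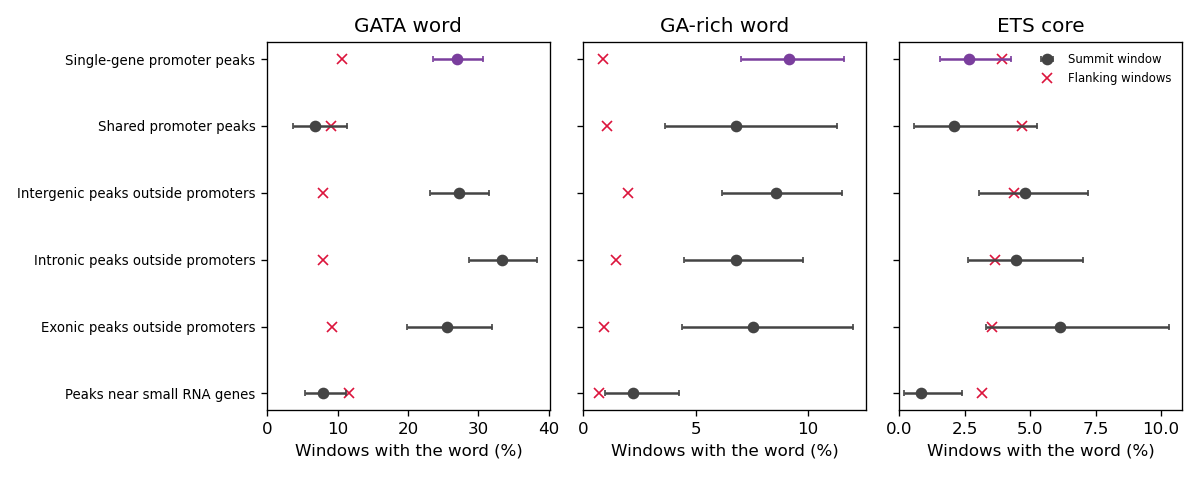
Share of summit windows with each word (points with exact 95% binomial intervals) and of windows 500 bp to each side (crosses) for 6 kinds of nuclear peak, single-gene promoter peaks on top in purple. The GATA word stands at 26.9% for these and 6.77% for shared promoters, and the ETS core at 2.68% for these, with 3.94% in their flanks.

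Along the promoter the GATA word was uneven. It lay in 75 of 208 windows within 200 bp upstream of the start, 36.1% (29.5 to 43.0), in 30 of 181 from 200 to 400 bp, 16.6% (11.5 to 22.8), and in 55 of 200 farther out, 27.5% (21.4 to 34.2). In all promoters the share ran between 9.70% and 12.6% over the upstream stretches, highest in the first 100 bp. Signal strength did not go with it: with the members cut into 4 by signal, from weakest to strongest, the share was 27.0%, 28.3%, 28.5% and 23.9%. Members with the word had a median signal of 72.2 and were in both own lists for 26.3%, against 73.4 and 26.5% for those without.

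**Figure D5:**
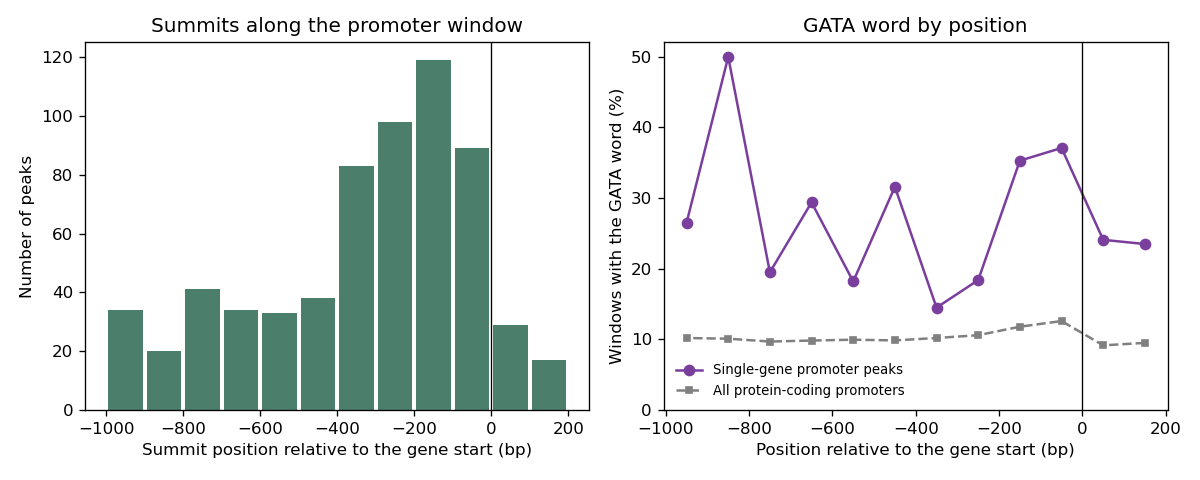
Left, number of single-gene promoter summits in each 100 bp stretch around the gene start (horizontal axis, bp, upstream is negative). Right, share of windows with the GATA word (%) at the members' summits in the same stretches (purple circles) and at the middle of the stretch in all protein-coding promoters (grey squares); the members lie above the promoters throughout, and the highest point rests on 10 of 20 peaks.

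By role, the share of genes with the GATA word ranged widely between groups. All 5 F-box genes and 5 of the 7 C-type lectin genes with a member had the word in the window of their strongest peak, 10 of 12 together (83.3%, 51.6 to 97.9). In 13 lists of protein making, folding, breakdown and trafficking, mitochondria and RNA it was 3 of 49 (6.12%, 1.28 to 16.9). In the transcription factor lists it was 9 of 30 (30%, 14.7 to 49.4) and among genes of no list 137 of 475 (28.8%, 24.8 to 33.1), both near the 164 of all 592 genes (27.7%). Lists outside these groups lay lower than the F-box and lectin genes or were small. Chemoreceptors, also a large family, had 2 of 7 and detoxification genes 1 of 6. In each of the signalling, chromatin, cell cycle and cuticle lists 0 or 1 gene had the word. The groups were formed after the values were seen and carry no test. clec-78, a lectin gene, had 70.3 and 55.1 in replicates 1 and 2, and fbxb-58 had 49.4 and 37.6. Other carriers, picked after their values were seen, follow. elt-2, the GATA factor of the intestine, had 51.4 and 56.6, and aex-4, a SNAP-25 protein that acts in intestinal secretion, had 52.7 and 53.6. cyd-1, cyclin D, had 34.2 and 63.2. ints-4, of the Integrator complex, had a conservative signal of 131 with 59.7 in replicate 2. Replicate 1's own ranked list had no overlapping peak, which does not show that signal was absent there.

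The GA-rich word lay in 58 windows, 9.13% (7.01 to 11.6), against 0.866% (0.433 to 1.54) of flanks and 1.19% of all promoters. The word was chosen with earlier results of these data known, so its excess over the flanks is a description and not a test. Longer runs of the same kind were raised too, GAGAGAGA at 4.09%, against 0.394% of flanks. Its interval overlapped those of the other classes away from small RNA genes, at 6.77% (3.65 to 11.3) in shared promoters and 8.55% (6.15 to 11.5) in intergenic peaks. Cut into 4 by signal, the weakest members held it in 3.77% and the strongest in 12.6%. Members with it had a median signal of 84.7, and 24 of 58 were in both own lists, 41.4% (28.6 to 55.1), against 25% (21.5 to 28.7) of those without. Their windows held 51.5% GC, against 44.4% in those without and 35.6% in the flanks of all members. The part of base content in the excess of the word was not tested. The word and the GATA word seldom met, in 5 members, and 401 members held none of the 3 words.

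Of the 58 carriers of the GA-rich word, 5 picked after their values were seen are given here. cebp-1, a C/EBP factor needed for axon regrowth, had 52.1 and 77.7 in replicates 1 and 2, and its window holds the word 2 times. nhr-58, a nuclear hormone receptor, had 65.3 and 66.9. cdk-7, the kinase of TFIIH, had 48.6 and 62.9, and myrf-1, a membrane-bound transcription factor of larval development, had 55.7 and 44.5. lin-23, a ubiquitin ligase subunit that limits cell division, had 42.8 and 59.1. These replicate pairs lie within 2-fold of each other, as do those of 94.9% of the members with both values.

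Of the 22 words counted, others with a share above that of the flanks and separate intervals included the E-box CACGTG, at 6.46% against 1.57%, GCGCGC, at 5.67% against 0.787%, GTGTTTG, at 5.20% against 0.945%, GGGCGG, at 5.04% against 1.81%, and GTGTGCG, at 4.72% against 0.394%. Over all promoters these were 1.55%, 1.15%, 1.82%, 2.17% and 0.816%. GTGTTTG stood at 5.20% (3.60 to 7.22) in members and 10.9% (6.90 to 16.2) in shared promoters, intervals that overlap. TTTNGCGC, a word of the E2F type, stood at 1.57% (0.758 to 2.88) in members, against 6.25% (3.27 to 10.7) in shared promoters. GTGTGCG lay in 3 of the 24 strongest members found in both own lists, those of rpl-3, rpl-35 and hsp-3. Runs of T were fewer, TTTTTTTT at 3.78%, against 11.9% of flanks. GGTTCGA, the B box of tRNA genes, lay in 5 members (0.787%), against 1.02% of flanks. The members' summit windows held 45.1% GC, against 35.6% in their flanks and 34.4% in all promoters. The part of base content in the differences for these words was not tested.

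Among gene groups, 117 of the 3701 genes of 30 lists had a member, and 475 member genes were in no list. Over all protein-coding genes 2.96% had a member and 5.25% had any promoter summit, shared windows included. The shares below are read against 2.96%; genes that share a promoter with another cannot be counted. Of the 30 lists, 6 had an interval above it (cytosolic ribosomal proteins, chaperones, autophagy, nuclear hormone receptors, bZIP factors, and cell cycle and replication) and 1 below it (chemoreceptors), as a description with no test.

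Among the genes that make proteins, 7 of 76 cytosolic ribosomal protein genes had a member, 9.21% (3.78 to 18.1), and 25 had any promoter summit. After rpl-3 and rpl-35 came rpl-41.2 with 54.7 and 55.0 in replicates 1 and 2, rpl-11.2 with 43.8 and 73.7, and rps-24 with 67.6 and 40.1. Of 41 translation factors 3 had one, led by eif-3.C, a subunit of the initiation factor eIF3, with 38.9 and 66.0. None of 32 aminoacyl-tRNA synthetase genes had one, which allows a share of up to 9.38%. Of mitochondrial genes, 3 of 66 for its ribosome had a member, 4.55% (0.947 to 12.7), and 3 of 45 for oxidative phosphorylation, 6.67% (1.40 to 18.3), intervals that hold the share over all genes. In oxidative phosphorylation, cox-5A and cox-5B, subunits of cytochrome c oxidase, had 75.2 and 109.7, and 72.0 and 78.5.

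In protein folding and removal, 7 of 73 chaperones had a member, 9.59% (3.94 to 18.8). Of these hsp-3, crt-1 (calreticulin), pdi-2 and pdi-6 (protein disulfide isomerases) work in the endoplasmic reticulum, whose stress response the products of xbp-1 and atf-6 control. The other chaperones with a member were dnj-9, with 51.2 and 75.3 in replicates 1 and 2, hsp-1 and pfd-1. Only hsp-3 and dnj-9 of the 7 were in both own lists, and atf-6 was not. crt-1 had 34.0 and 82.1 in replicates 1 and 2, a gap of over 2-fold, pdi-2 had 37.6 and 52.3, and atf-6 had 37.7 and 28.1. Of 27 autophagy genes 5 had one, 18.5% (6.30 to 38.1): lgg-2 and lgg-1, both Atg8 proteins, with 69.9 and 66.2, and 35.1 and 41.9; epg-7 with 47.1 and 70.7; atg-9, a membrane protein of the forming autophagosome, with 46.8 and 65.2; and epg-8 with 26.1 and 33.0. Of these 5, 3 that were above 100 in the conservative list, were in both own lists. The ubiquitin system had 5 of 69, the secretory pathway 7 of 108 and the vacuolar ATPase 2 of 21, whereas none of 33 proteasome genes had one, which allows up to 9.09%.

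Transcription factors were uneven. Nuclear hormone receptors had 18 of 274, 6.57% (3.94 to 10.2). nhr-58 was the strongest, then nhr-291 with 57.7 and 58.5 in replicates 1 and 2 and nhr-256 with 53.7 and 54.9. nhr-49, a regulator of fat metabolism, had 27.4 and 49.6, and nhr-8, which acts in the response to foreign compounds, had 45.2 and 41.9. bZIP factors had 5 of 28, 17.9% (6.06 to 36.9): xbp-1, cebp-1, atf-6, zip-11 and atfs-1, the factor of the mitochondrial stress response, with 33.4 and 49.7. Homeobox genes had 1 of 97, 1.03% (0.0261 to 5.61), ceh-60, and bHLH genes 2 of 38, hlh-11 and mml-1. pha-4, the FoxA factor of the pharynx, had 23.6 and 33.2. Of 9 other ETS genes, ets-4 had one, with 38.0 and 38.6.

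Of the pathway in which LIN-1 acts, 3 of 33 EGF, Ras and ERK genes had a member, 9.09% (1.92 to 24.3), an interval that holds the share over all genes. All 3 were in both own lists. cnk-1, a scaffold of Raf signalling, had 87.2 and 63.0 in replicates 1 and 2, sem-5, the Grb2 adaptor that links receptor to Ras, had 61.9 and 41.9, and eor-2, a nuclear factor that acts with EOR-1 downstream of ERK, had 43.0 and 36.4. Replicate 1 was higher for all 3, unlike for most members. wrm-1, a beta-catenin, was the 1 of 27 Wnt genes, and none of 22 Notch genes had one, which allows up to 13.6%.

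Among cell cycle and chromatin genes, 4 of 32 for cell cycle and replication had a member: cyd-1, lin-23, pcn-1, which is PCNA, with 38.3 and 46.3 in replicates 1 and 2, and mcm-2, a subunit of the replicative helicase, with 25.2 and 41.3. Of 23 synMuv and Rb-E2F genes 3 had one. lin-9, of the DREAM complex, had 46.3 and 92.7, lin-52, of the same complex, 23.3 and 35.2, and efl-1, an E2F factor, 22.6 and 34.6. Replicate 2 was the higher in each. The transcription machinery had 6 of 87, and splicing 1 of 65, mog-4. Any promoter summit, shared windows included, lay at 9 of the transcription machinery genes and 8 of the splicing genes.

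Of the large families, chemoreceptors had 7 of 1365, 0.513% (0.206 to 1.05), below the share over all genes. Cuticle collagens had 1 of 175, 0.571% (0.0145 to 3.14), col-63, and histones 1 of 72, his-37, with 58.5 and 94.2 in replicates 1 and 2. Any promoter summit lay at 4 of the collagen genes and 7 of the histone genes. F-box genes had 5 of 322, 1.55% (0.506 to 3.59), C-type lectins 7 of 240, 2.92% (1.18 to 5.92), and detoxification genes 6 of 185, 3.24% (1.20 to 6.93), shares whose intervals hold that over all genes. None of the 6 detoxification genes, with signals of 55.5 to 68.0, was in both own lists.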

How the data were processed

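ChIP-seq peak lists of 2 replicates of tagged LIN-1 were used, on ce11 per the labels. The authors compared and thresholded peak ranks between lists by IDR, the irreproducible discovery rate, per the file names and their layout. The signal of each peak is the authors' deposited value, and neither its scale nor its maker is stated. The score of up to 1000 is also the authors' deposited value, follows the IDR and was not used here. A −log10 of the global IDR stands in the ranked lists as deposited by the authors and served in 1 alternative. The sources used here name no aligner, peak caller or depth, so no precision from read depth can be stated. Each replicate was called alone for its own lists, and both enter the conservative list, the main one here, at a global IDR of 0.01 or less.

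Summits were placed on the Ensembl 115 annotation and the RefSeq genome of WBcel235, with 1-based coordinates. For each replicate the value given is the top signal among peaks of its own ranked list that overlap the member by 1 bp or more. Where the unnamed columns of the ranked list gave a pair of compared values equal to a stronger peak's, the member was taken as a repeat. Sequence words were counted on either strand. Intervals are exact 95% binomial ones (Python 3.11.15, scipy 1.17.1, numpy 2.4.6), and a count of 0 allows 3 of the total. The assignment and counting steps were tested on simulated data. The series has 1 group, so no conditions were compared and no test was run. Alternatives used the series list, each replicate alone, other windows, starts and distances, a stricter IDR and other motif settings.

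Named genes are the 24 strongest members in both own lists, up to 3 of the strongest of each list and those at the limits of the rule; other genes were named after their values were seen. The members, the gene lists and the words were chosen with earlier results of these data known.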

Additional observations from a re-analysis of the deposited data

How the results depend on the processing

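With replicate 2's own list alone (without replicate 1) there were 377 members, 369 genes and 82 listed genes. Their median signal was 49.7, the median log2 replicate difference 0.48, the ETS core share 2.92% and the GA-rich share 9.55%. With replicate 1's own list alone (without replicate 2) there were 274 members, 260 genes and 55 listed genes. Their median signal was 44.8, the median log2 replicate difference -0.0015, the ETS core share 5.11% and the GA-rich share 11.7%. Without replicate 2, where replicate 1 chose the peaks, the log2 difference was thus reversed in sign. With only the members in both own lists there were 168 members, 165 genes, a median signal of 107, an ETS core share of 4.76%, 45 listed genes and a GA-rich share of 14.3%. At a global IDR of 0.001 or less there were 312 members, 300 genes, a median signal of 92.4, 53.5% in both own lists and 72 listed genes. A window from 500 bp upstream to 100 bp downstream gave a median signal of 75.7, 30.9% in both own lists and a median distance of 190.5 bp; 2000 bp upstream to 500 bp downstream gave 466 bp. The ETS core share was 1.26% in windows of 51 bp, 5.67% in windows reaching 100 bp to each side, and 0.157% for CCGGAAGT. The GATA word share and the share on X kept within their intervals under all 11 alternatives run for each; those for the GATA and GA-rich words were added after the data were seen. The share in both own lists has no value where a list is used alone. No paired analysis was possible because the series holds 1 group. The causes of these shifts, beyond the smaller windows and lists themselves, were not tested. Peaks rather than reads were available, so weak binding below the lists' thresholds cannot be seen.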
